A study of Mus musculus with 18 samples.

Results

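The 6 arrays described here hold RNA from control myotubes of the mouse line C2C12, and were chosen by their titles as the scramble shRNA samples, 6 of 18 arrays in all. C2C12 cells are myoblasts, precursors of skeletal muscle, that leave the cell cycle and fuse into multinucleate myotubes once serum is lowered. The growth medium held 20% fetal bovine serum and the differentiation medium 2% horse serum. They were infected 36 h after differentiation began with a virus carrying a non-targeting short hairpin RNA (shRNA), and collected 48 h after infection. The controls therefore carried a lentivirus and an expressed hairpin, as did the other 12 arrays, 6 with a Nup210 shRNA and 6 with a Mef2c shRNA. Those 12 arrays serve below only to ask whether patterns among the controls recur, each group being centred on its own mean. The labels do not say whether the 6 samples came from separate cultures, so the spread between them may be partly technical.

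Skeletal muscle builds its contractile apparatus from gene families in which embryonic, fast and slow members replace each other as fibres mature. Regenerating fibres and cultured myotubes are known for embryonic and perinatal myosins and for the fetal acetylcholine receptor, and adult fibres for fast or slow forms. Myogenin and the fusion protein myomaker mark commitment and fusion, and the inhibitor Cdkn1a accompanies permanent withdrawal from the cell cycle. A culture also holds reserve cells, which stay mononucleate and keep satellite cell genes.

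Levels are log2 array values, so a difference of 1 is 2-fold. Each gene is read on its own probe set, and probe sets differ in how brightly they report the same amount of RNA. A rank is thus an order of signals, not of RNA amounts. Of 22180 genes, 12106 (54.6%) were above background in all 6 control arrays, meaning above the 95th percentile of 1409 odorant, pheromone and trace amine receptor genes, which muscle is not known to use. That threshold lay between 5.41 and 5.51 in the 6 arrays. Array medians ran from 5.48 to 5.53, and pairs of arrays correlated across genes at 0.993 to 0.996. The number of arrays, 6, limits the precision of every value.

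The brightest named genes were of mixed function, with mitochondrial, cytoskeletal, matrix, muscle, translation and other genes among them. Of the 20 brightest named genes, 8 were encoded by the mitochondrial genome: ND4, COX1, CYTB, ND5, ND1, ND3, ND4L and COX3, subunits of the respiratory chain. ND4 read 13.58 ± 0.045 (SD, n = 6). Acta2, the smooth muscle actin, read 13.41 ± 0.035. Its probes may also capture the related transcripts of Acta1 and Actc1, which was not tested, so the level of each of these actins is uncertain. Bgn, a small proteoglycan of the matrix, read 13.30 ± 0.019, and Tnnt2, the troponin T of embryonic and cardiac muscle, 13.10 ± 0.033. Cdkn1a, the p21 inhibitor of cyclin-dependent kinases, read 13.04 ± 0.016 and ranked 18 of all genes. Its values from array 1 to array 6 were 13.05, 13.05, 13.02, 13.06, 13.03 and 13.05, with no array apart. The other 8 were the translation factors Eif4a1 and Eef1a1, the ribosomal Rpl21, the glycolytic enzyme Gapdh, the ferritin chain Fth1, the tetraspanin Cd81, the intermediate filament Vim and the lectin Lgals1. Some of these levels differ by probe set: another probe set read 8.50 for Eif4a1, 8.08 for Eef1a1 and 10.54 for Bgn. In the same range 3 small RNAs were counted and not described.

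Most genes of the commitment and fusion programme were above background. Of 18 measured myogenic factors 17 were, beside 54.6% of all genes, with a median level of 9.24. Their median SD was 0.072, against 0.060 for all genes between 9 and 10. Mymk, the myomaker protein of the fusing membrane, read 12.82 ± 0.030, and Myog, myogenin, read 12.20 ± 0.072. Mef2a, a partner of the myogenic factors, read 12.06 ± 0.066. Myf6, the myogenic factor linked to late differentiation, read 6.04 ± 0.17, and Eya2 was not above it. The fusion list had 22 of 23 measured members above background.

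Regulatory DNA of 3 bright muscle genes is shown because their families carry the isoform results: Chrna1, the alpha subunit of the acetylcholine receptor (12.66 ± 0.021), Acta1, the adult skeletal actin (12.55 ± 0.017), and Tnnt2. The sequences are the 250 bases before each annotated start, from RefSeq on GRCm38.p6, 5′ to 3′ on the gene's strand. Capitals mark the E-box CAGCTG, a palindrome that muscle basic helix-loop-helix factors can bind, and in Acta1 also a CArG box, the element of serum response factor. Chrna1 lies at chr2:73580339-73580588 on the minus strand, Acta1 at chr8:123894776-123895025 on the minus strand and Tnnt2 at chr1:135836084-135836333 on the plus strand.
Chrna1: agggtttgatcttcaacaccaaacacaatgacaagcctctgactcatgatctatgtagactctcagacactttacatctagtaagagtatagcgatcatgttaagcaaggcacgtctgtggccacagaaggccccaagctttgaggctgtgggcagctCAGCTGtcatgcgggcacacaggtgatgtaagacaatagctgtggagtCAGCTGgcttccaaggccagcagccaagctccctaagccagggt
Acta1: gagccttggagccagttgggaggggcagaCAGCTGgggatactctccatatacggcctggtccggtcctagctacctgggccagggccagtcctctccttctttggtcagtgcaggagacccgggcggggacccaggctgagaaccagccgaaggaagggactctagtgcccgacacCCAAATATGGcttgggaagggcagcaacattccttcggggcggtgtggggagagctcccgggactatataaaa
Tnnt2: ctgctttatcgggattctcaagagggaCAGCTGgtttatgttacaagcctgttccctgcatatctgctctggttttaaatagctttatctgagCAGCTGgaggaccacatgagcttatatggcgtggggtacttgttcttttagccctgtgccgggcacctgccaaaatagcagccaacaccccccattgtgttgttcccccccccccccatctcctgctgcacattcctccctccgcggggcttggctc
CAGCTG was found 2 times in Chrna1, 1 time in Acta1 and 2 times in Tnnt2, and the CArG box only in Acta1 among these 3. CAGCTG was in 12.8% of 27025 windows of this length, and in 25 of the 69 windows (36.2%) of thick filament, thin filament, calcium handling and neuromuscular junction genes. The CArG box was in 1.4% of all windows and in 6 of those 69 (8.7%). The 3 genes were picked after their values were seen, and a match is a run of letters, not a bound site.

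Embryonic, fast and slow isoforms were detected side by side. The 68 measured isoform genes included 12 nonmuscle and 8 general muscle forms. Of the 68, 63 were above background, beside 54.6% of all genes. All 6 embryonic forms, all 11 fast forms outside the myosin heavy chains and all 12 slow forms were among them, and the 5 that were not were 3 cardiac forms and the myosins Myh2 and Myh13.

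Among myosin heavy chains, the motor of the thick filament, embryonic Myh3 read 12.06 ± 0.031 and lay at the 99.6th percentile of genes. Its values in arrays 1 to 6 were 12.04, 12.08, 12.03, 12.06, 12.11 and 12.04. Perinatal Myh8 read 9.06 ± 0.099, and its other probe set 6.26. The fast chain Myh1 (type 2X) read 10.98 ± 0.11, and the slow chain Myh7 9.01 ± 0.072. Myh2 (type 2A) read 5.66 ± 0.24 and exceeded background in 5 of 6 arrays, array 5 being the exception. Cardiac Myh6 and extraocular Myh13 exceeded it in 0 of 6. Myh4, the fast chain of type 2B fibres, was the chain that varied most. Its values were 8.75, 8.22, 9.07, 8.36, 8.14 and 8.39, so that arrays 1 and 3 stood above the other 4.

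**Figure D1:**
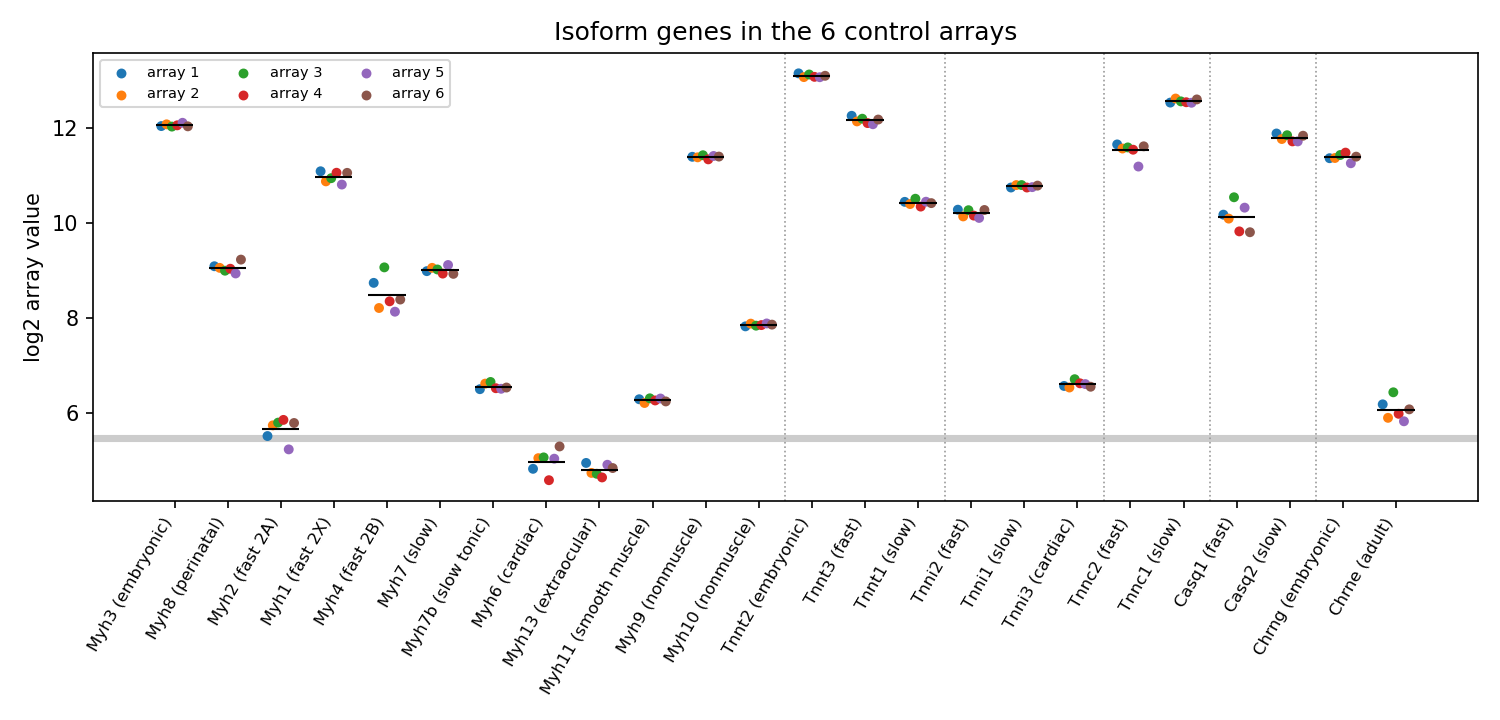
Log2 array values of isoform genes in the 6 control arrays, with dotted lines between families, a point for each array, a bar at the mean and a grey band for the range of the background threshold. Embryonic, fast and slow members lie above the band in most families, Myh6 and Myh13 lie below it, and Myh4 and Casq1 scatter most.

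Troponins, the calcium switch of the thin filament, showed the same mixture. The slow and cardiac troponin C, Tnnc1, read 12.57 ± 0.037 and the fast Tnnc2 11.53 ± 0.17. Fast Tnnt3 read 12.16 ± 0.065 and slow Tnnt1 10.43 ± 0.055. Slow Tnni1 read 10.78 ± 0.025 and fast Tnni2 10.21 ± 0.079. Array 5 was the lowest array for Tnnc2, Tnnt3 and Tnni2. In Tnnc2 it read 11.19 and the others 11.55 to 11.66.

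At the membrane and in metabolism, several adult forms had low signals. Chrng, the fetal gamma subunit of the acetylcholine receptor, read 11.39 ± 0.075, and Chrne, the epsilon subunit that replaces it in innervated muscle, 6.07 ± 0.22. Pgam2, the muscle phosphoglycerate mutase, read 6.74 ± 0.090, Slc2a4, the insulin-responsive glucose transporter, 6.11 ± 0.028, and Eef1a2, the muscle elongation factor, 6.63 ± 0.15. Other muscle forms were bright: Eno3, the muscle enolase, read 12.66 ± 0.089, Cox6a2, a muscle subunit of cytochrome oxidase, 10.88 ± 0.067, and Actn3, the fast-fibre actinin, 11.91 ± 0.048. Both calsequestrins, which store calcium in the reticulum, were well detected, with Casq2 at 11.80 ± 0.071 and Casq1 at 10.13 ± 0.29. Ryr1, the adult calcium release channel, read 10.11 ± 0.047, and Ryr3, its embryonic relative, 7.45 ± 0.047.

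Markers of other cell types gave mixed counts, to be read beside the 54.6% of all genes above background. Above it were 3 of 10 adipocyte, 2 of 7 osteoblast, 2 of 8 chondrocyte, 4 of 9 neuron, 1 of 8 endothelial, 1 of 7 leukocyte, 4 of 7 epithelial, 4 of 8 cardiac and 4 of 7 fibro-adipogenic markers. The epithelial (57.1%), fibro-adipogenic (57.1%) and cardiac (50%) shares were near that of all genes, and the endothelial (12.5%) and leukocyte (14.3%) shares were the lowest. Within a list members differed: the adipocyte hormone gene Adipoq was not above background while Lpl read 7.05 ± 0.26, Epcam was not while the cadherin Cdh1 read 6.66 ± 0.11, and Myh6 was not while the cardiac factor Gata4 read 7.43 ± 0.13. Pecam1 and Ptprc, which mark endothelium and leukocytes, were not above it either. Adipoq, Epcam, Pecam1 and Ptprc are named after their values were seen. Of the interferon-responsive genes, 13 of 27 (48.1%) were above background, near the share of all genes, with Stat2 the brightest at 7.85 ± 0.055, and Isg15, Mx1, Rsad2 and Ifnb1, named after their values were seen, were not. All 29 measured mitosis genes were above background. Ect2, needed for cytokinesis, was the brightest of them at 9.57 ± 0.17. In bulk RNA, a few cycling cells and little of this RNA in every cell cannot be told apart. The satellite cell factor Pax7 read 8.90 ± 0.27.

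The arrays differed little from each other for most genes. The median SD over genes above background was 0.085, and the median ratio of the highest to the lowest array was 1.17-fold. The SD fell with level, from a median of 0.13 for genes at 6 or less to 0.039 for genes over 12. An SD over 0.2 was reached by 609 of 12106 genes (5.03%), and 18 genes (0.149%) spanned more than 2-fold. Among genes with a mean of at least 10, the steadiest were Selenof, Loxl1, Arfgap3, Mdh2, Ywhab, Pcbp2, Anxa6, Dpp3, Atp5b and Cpd, with SDs of 0.011 to 0.015. Mdh2 is the mitochondrial malate dehydrogenase and Atp5b a catalytic subunit of ATP synthase. The ordering of genes by SD correlated with that in the other arrays at a Spearman rho of 0.55 in each group. In each group the 200 genes of largest SD were taken from the same 12106 genes, those above background in the controls. Of the 200 in the controls, 74 (37%) were among the 200 of the Mef2c shRNA arrays and 71 (35.5%) among those of the Nup210 shRNA arrays. These shares stand beside 200 of 12106 genes. These are descriptions across genes, which share level and probe design.

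**Figure D2:**
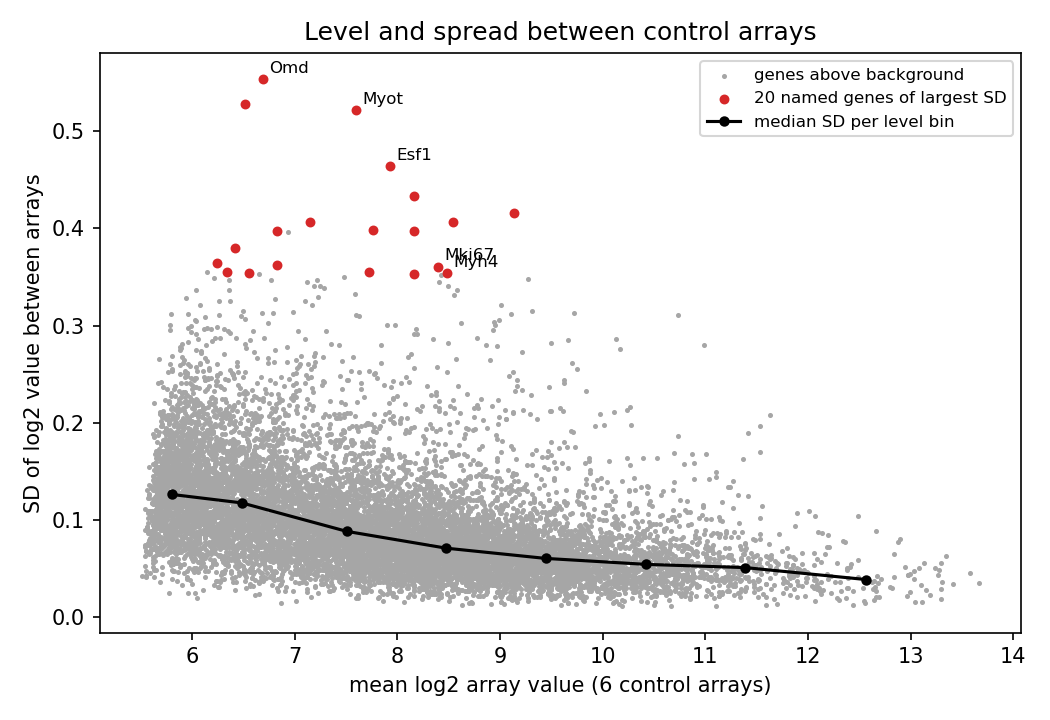
SD between the 6 control arrays against the mean log2 array value, for the 12106 genes above background, with the 20 named genes of largest SD in red and the median SD in each range of level in black. The median SD falls from 0.13 to 0.039 as level rises, and the red points lie at SDs of 0.35 to 0.55.

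The 20 named genes of widest spread had mixed functions and did not share a single profile over the arrays. Omd, osteomodulin, a proteoglycan of the matrix, varied most: its values were 6.56, 6.84, 6.85, 6.43, 7.56 and 5.89, a 3.19-fold span. It was highest in array 5 and lowest in array 6. Myot, myotilin of the Z-disc, read 7.995, 7.307, 7.999, 7.544, 6.713 and 8.015 and was lowest in array 5. Ccn3, a secreted matricellular protein, read 7.51, 8.01, 7.33, 8.15, 7.39 and 8.20, high in arrays 2, 4 and 6. Cilp, a matrix protein, read 8.41, 7.94, 8.85, 7.85, 8.10 and 7.82, highest in array 3. The 20 also held Fam180a, Apod, Tmc3, Pcbd1, Prr32, the tubulin Tubb3, Btbd35f1 and the surface antigens Ly6c2, Ly6a2 and Ly6g2. Ly6 genes are near-identical paralogs whose probes may not separate them.

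Esf1, a ribosomal RNA processing factor, read 8.18, 7.11, 8.09, 8.46, 7.98 and 7.77. Array 2 stood below the other 5. Akap9, a scaffold of the Golgi and centrosome, read 8.69, 7.86, 8.76, 9.01, 8.64 and 8.31, and Mki67, a chromosome coat protein of cycling cells, 8.49, 7.82, 8.39, 8.94, 8.44 and 8.32. Both were lowest in array 2 and highest in array 4, as were the mitotic kinesin Kif20b and the zinc finger gene Zfp942.

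**Figure D3:**
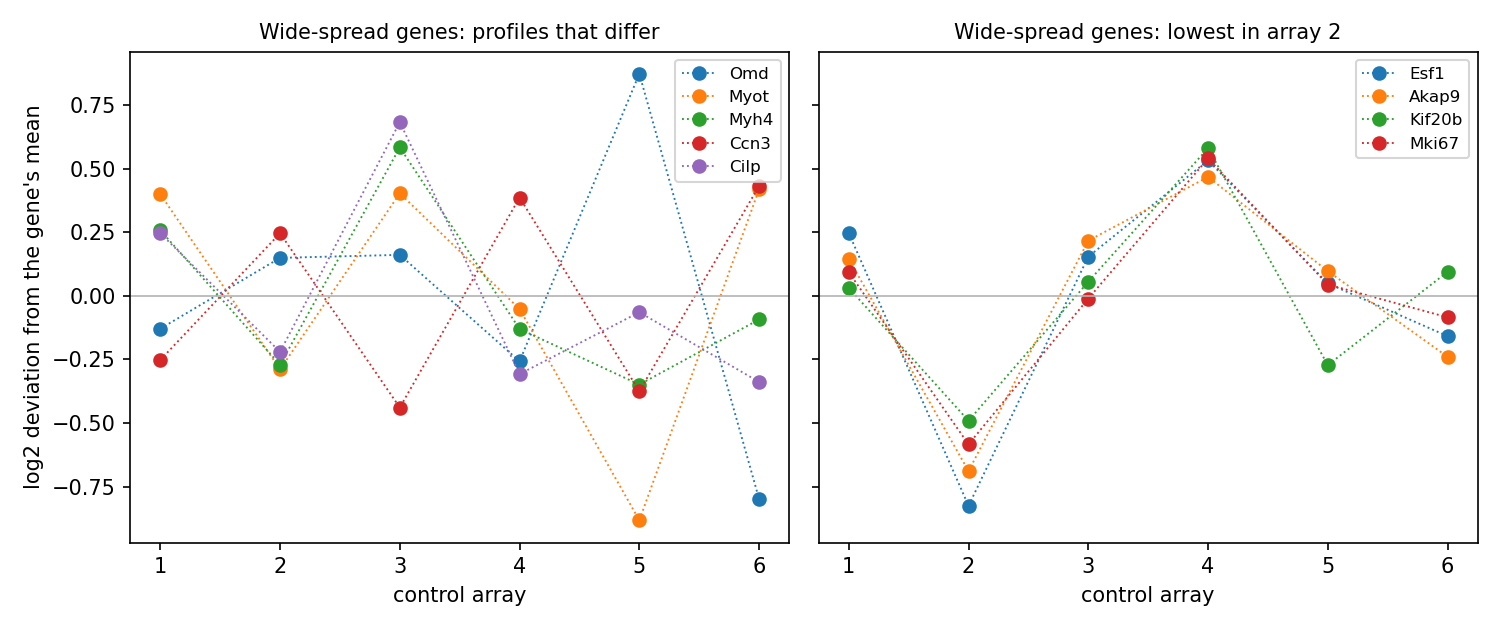
Deviation of each control array from the gene's mean, on the log2 scale, for 9 of the genes of widest spread; points are arrays and the dotted lines only join the points of a gene. Omd is highest and Myot lowest in array 5, whereas Esf1, Akap9, Kif20b and Mki67 are lowest in array 2 and highest in array 4.

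Grouping the 200 genes of largest SD by their profiles over the 6 arrays gave 81 genes that were low in array 5 and high in array 6, among them Myot, Tmc3, Ccn3, Ccn2, Cnn1, Tnc and the mitosis genes Ccnb2, Cdc25c and Birc5. A further 55 genes were low in array 2 and high in array 4, with Esf1, Akap9, Mki67, Kif20b, Cenpe, Atrx, Nipbl, Dmd and Rock1. A further 39 genes were high in array 5 and low in arrays 4 and 6, with Omd, Fam180a, Aspn, Id3, Casq1 and Pax7. Another 8 genes, with Cilp and Myh4, were high in array 3. The median RefSeq gene span was 20668 bases in the set of 81 and 29886 in the set of 55. It was 4364 in the set of 39 and 12376.5 in the set of 8, against 21535 over all genes above background. Whether span relates to profile was not tested. Members listed here outside the rankings were chosen after their values were seen, and grouping by profile makes members of a set alike by construction.

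The arrays of the 3 shRNA groups carry replicate numbers 1 to 6, and whether a number stands for a shared culture or day is not given in the labels. Deviations of same-numbered arrays correlated at a median of 0.21 between control and Mef2c shRNA arrays and 0.15 between control and Nup210 shRNA arrays, and exceeded 0.1 for 4 of 6 numbers in each. Differently numbered arrays of these groups had medians of -0.034 and -0.030. The ranges overlapped: same-numbered arrays ran from -0.082 to 0.44 and from -0.19 to 0.42, and differently numbered ones from -0.36 to 0.24 and from -0.41 to 0.23. Because each group is centred on its own mean, positive r for the same number tends to make r for different numbers negative. The medians for same and different numbers are therefore not independent, here and in the next comparison. Between Mef2c and Nup210 shRNA arrays the median was 0.23 for the same and -0.025 for different numbers. The 81-gene set, low in control array 5 by 0.37 on average, was also low in array 5 of both other groups, with mean deviations of -0.26 and -0.27. The 8-gene set was high in array 3 in all 3 groups, by 0.47, 0.39 and 0.31. The 55-gene set showed no such match in its lowest array: control array 2 deviated by -0.43, and array 2 of the Mef2c and Nup210 shRNA groups by 0.27 and 0.10.

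**Figure D4:**
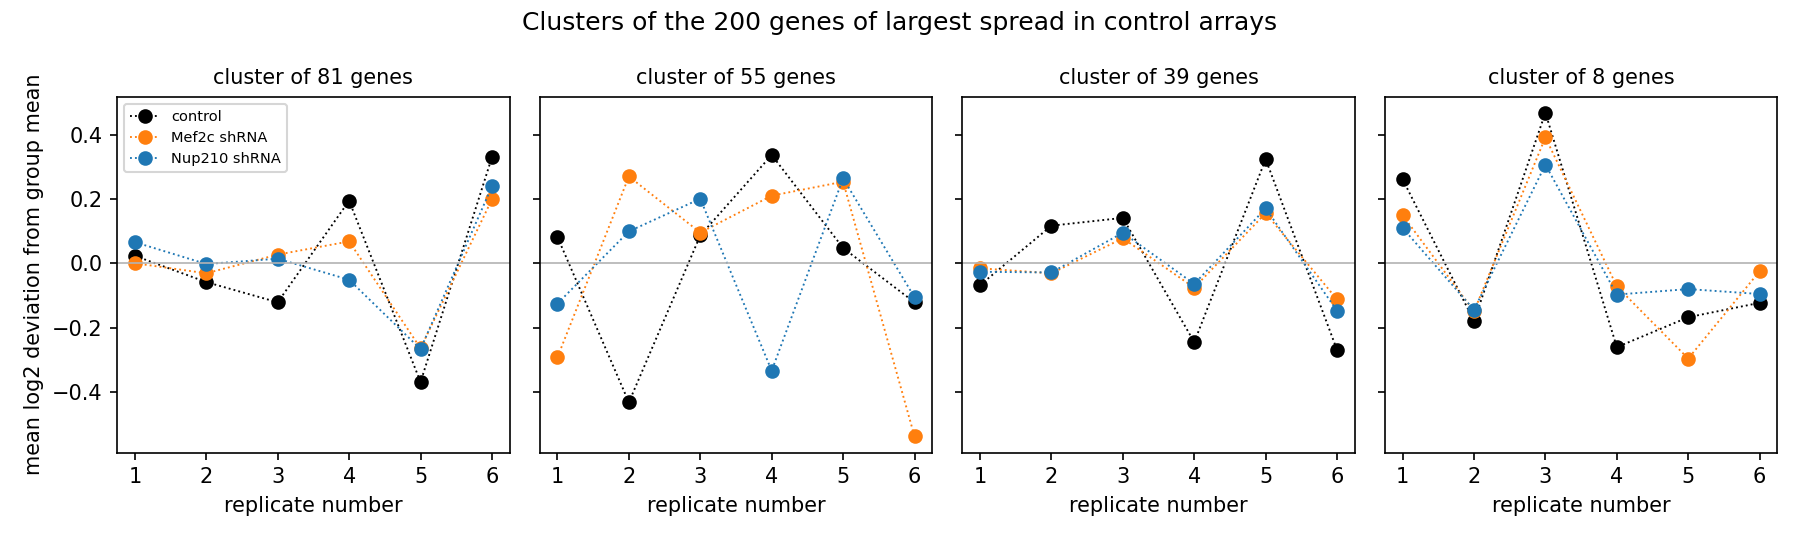
Mean deviation from the group mean, on the log2 scale, by replicate number, for the 4 largest sets among the 200 genes of widest spread in controls, in control, Mef2c shRNA and Nup210 shRNA arrays; dotted lines only join points of a group. The 3 groups share the sign of the deviation at every number in the set of 8 genes. They share it at all but number 2 in the set of 39, and at all but numbers 3 and 4 in the set of 81. In the set of 55 the signs differ at numbers 1, 2 and 4.

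How many genes differ by replicate number depended on the analysis, and all 3 analyses were chosen after the data were seen. The first, a limma F-test on the 12 arrays outside the control group with group as a term, called 1 of 22180 genes at an adjusted p under 0.05, and 1946 had an unadjusted p under that value. The second, the same test on all 18 arrays, called 269 (1.21%), of which 251 were above background. This test gave 2707 genes an unadjusted p under 0.05. Without the arrays of number 5 it called 4, without number 6 it called 53, without number 3 it called 130 and without number 1 it called 173. Of the 269 genes, 159 were lowest in control array 5 and 115 highest in control array 6. The control arrays enter this test, so it is no independent check of a pattern seen in them. The third, an exact permutation test that set each gene's control profile against the mean profile of the other groups over all 720 pairings, called 0 of 12106 genes in a two-sided test. There 1310 genes (10.8%) had an unadjusted p under 0.05, and the smallest adjusted p was 0.263. With 720 pairings, a gene can pass the adjustment only if many genes share the smallest possible p. The count of 0 therefore does not decide whether single genes follow the number.

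For single genes, the profile of Myh4 in the controls correlated with that of the same numbers in the other groups at r = 0.97 (exact permutation p = 0.00139, the smallest that 720 pairings can give; adjusted over all genes 0.263) and rho = 1 (exact p = 0.00278). Without arrays 1 and 3, the farthest from its median, r was 0.98. Omd gave r = 0.96 (exact p = 0.00139, adjusted 0.263), and 0.99 without arrays 5 and 6. The fast troponin T Tnnt3 gave r = 0.98 (exact p = 0.00139, adjusted 0.263). Myot gave r = 0.97 (exact p = 0.00694, adjusted 0.314) and rho = 0.83 (exact p = 0.0583). Mki67 gave r = -0.25 (exact p = 0.675, adjusted 0.930) and Esf1 r = -0.30 (exact p = 0.625, adjusted 0.913). These 6 genes were chosen with earlier results of these data known, and none passed the adjustment of the permutation test. A gene at the smallest p that 720 pairings can give passes only if many other genes reach it too. The adjusted permutation values therefore cannot decide for a single gene.

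By list, the 269 genes included 10 of 33 matrix genes (Col1a1, Col6a1, Col6a3, Postn, Lum, Nid2, Tnc, Thbs2, Timp1 and Mmp2), of which Lum was not above background. They also included 4 of 20 reserve and satellite cell genes (Vcam1, Met, Hey1 and Fgfr4) and 4 of 21 immediate early genes (Egr3, Klf2, Klf4 and Dusp1). These counts stand beside 1.21% of all genes, and 251 of the 12106 genes above background, the fuller comparison since most listed genes were above it. Of thick filament genes 3 of 20 were included, the chains Myh8 and Myh4 and the binding protein Mybpc1. The Id and Notch list had 3 of 16 (Id3, Hey1 and Bhlhe40) and the growth factor list 3 of 20 (Igf1, Igfbp3 and Igfbp2). Of 29 mitosis, 24 S phase, 37 ribosomal protein and 24 oxidative phosphorylation genes 0 were, which at 1.21% of all genes is near the general share. These genes are named after their values were seen, the control arrays that show these patterns are part of that fit, and the counts rest on number 5 as given above.

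Contractile and mitosis genes had a positive correlation over the 6 control arrays, whose size rested on single arrays. The mean deviation of 77 contractile genes (thick filament, thin filament and Z-disc, and calcium handling) was 0.036, -0.024, 0.021, 0.0040, -0.079 and 0.042 in arrays 1 to 6. That of 29 mitosis genes was -0.031, -0.036, -0.18, 0.18, -0.16 and 0.23, high in arrays 4 and 6 and low in 3 and 5. Their r was 0.48 and rho 0.54, given without a test because the members were chosen as lists. In the Mef2c and Nup210 shRNA arrays r was -0.35 and 0.38. Without control array 5 it was 0.19, without array 6 it was 0.28 and without array 3 it was 0.72.

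**Figure D5:**
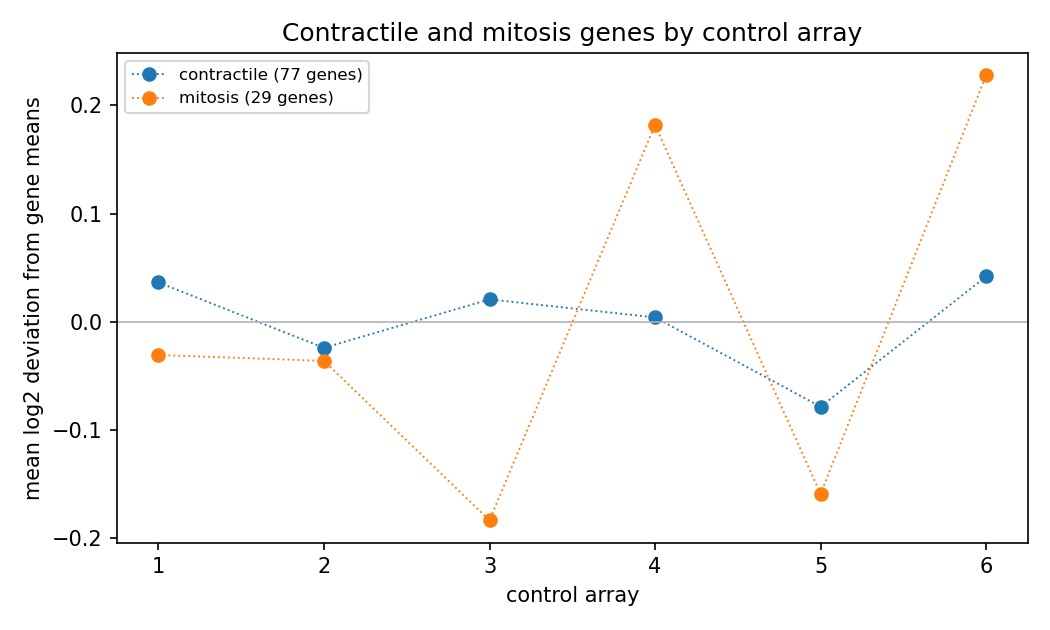
Mean deviation of 77 contractile and 29 mitosis genes from the gene means, on the log2 scale, in each control array; dotted lines only join points of a list. Mitosis genes are high in arrays 4 and 6 and low in arrays 3 and 5, and contractile genes are lowest in array 5.

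Mitosis genes moved together: 15 of 29 had an SD over 0.2, against 5.03% of all genes above background, and the median r between pairs of members was 0.80, against 0.018 over all pairs of genes. Their mean deviation followed that of 22 S phase genes (r = 0.98), which copy DNA, and of 19 genes of the TGF-beta and smooth muscle list (r = 0.98), with Tagln and Myl9, which encode smooth muscle cytoskeletal proteins. In the Mef2c shRNA arrays the first of these was 0.49 and the second -0.22. In the Nup210 shRNA arrays they were 0.89 and 0.37. Members differed in how closely they followed the rest. The r with the mean of the other 28 members was lowest for Mki67 (0.23), followed by Cenpe (0.34) and Cenpf (0.34), which fell with Mki67 in the 55-gene set; these r values are descriptions over 6 arrays. Ribosomal proteins and translation factors moved least, with list means spanning 0.033 and 0.017.

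Of 16 gene pairs listed, 15 could be tested, with exact two-sided permutation tests and Benjamini-Hochberg adjustment over the 15. The pairs were chosen with earlier results of these data known, and the adjustment does not cover that choice. Ckm, the muscle creatine kinase, and Casq1 ran in opposite directions, with r = -0.96 (exact p = 0.00278, adjusted 0.0417) and rho = -0.94 (exact p = 0.0167, adjusted 0.25). Ckm read 10.02, 10.04, 9.91, 10.10, 9.99 and 10.06 and Casq1 10.18, 10.10, 10.55, 9.83, 10.33 and 9.81, so arrays 4 and 6 were high for the first and low for the second. Without arrays 3 and 4 r was -0.96. In the 12 other arrays r was 0.43 (permutation p = 0.171, adjusted 0.377), the opposite sign, so the relation was not repeated there. With renewed quantile normalization r was -0.87 (adjusted exact p = 0.188), with all probe sets averaged -0.73 (adjusted exact p = 0.703) and with median centring -0.99 (adjusted exact p = 0.0208).

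Among the other 14 pairs none passed. Myog and Cdkn1a gave r = 0.91 (exact p = 0.0125, adjusted 0.0938) in the controls, only 0.061 (adjusted exact p = 0.981) once their values were quantile normalized again, and 0.29 (permutation p = 0.304, adjusted 0.456) in the 12 other arrays. Ckm and Tagln gave r = 0.74 (exact p = 0.0931, adjusted 0.465) in the controls and 0.71 (permutation p = 0.00607, adjusted 0.091) in the others. The embryonic and perinatal myosins Myh3 and Myh8 gave r = -0.59 (exact p = 0.225, adjusted 0.675), and the fast chains Myh1 and Myh4 r = 0.38 (exact p = 0.453, adjusted 0.856). The collagens Col1a1 and Col3a1 gave r = -0.025 (exact p = 0.924, adjusted 0.924), and Fos and Egr1 r = 0.66 (exact p = 0.160, adjusted 0.599).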

How the data were processed

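The authors deposited 1 log2 value per probe set and array, made with RMA and Partek per the submitters' processing notes. Versions, settings and build: not given in the sources used here. This method makes array distributions alike and compresses differences of dim genes. By the platform annotation, 23521 of 41345 probe sets carried a single symbol, 1814 carried several and 16010 carried none. Of those with 1 symbol, 23328 were found in the RefSeq table of GRCm38.p6, and 0 symbols changed. Each of 22180 genes was read on its brightest probe set, by mean over 18 arrays; 1082 genes had several.

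Samples were grouped by title. Means, SDs and ranges are over the 6 control arrays (Python 3.11.15, numpy 2.4.6, pandas 2.3.3, scipy 1.17.1). Exact tests used all 720 pairings; those on 12 arrays used 100000 resamples within groups. Limma 3.58.1 (R 4.3.3) fitted group and replicate number. The 200 genes of largest SD were grouped by average linkage of 1 minus r, at a distance of 0.6. Named genes are the 20 of highest mean, the 20 of largest SD above background, the 10 of smallest SD at a mean of 10 or more, all isoform and pair genes, and per list the 3 highest and 2 most variable; others are said to be chosen after their values were seen. Predicted genes, small RNAs and receptors are not named. The members, lists and pairs were chosen with earlier results of these data known.

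The replicate-number fits were added after the data were seen. The 12-array fit was run first, as a check independent of the controls, and called 1 gene; the 18-array fit was run after it. The fit and the ranking by SD were tested on simulated data with known answers. The 12-array fit recovered fewer genes than the level set for that test, so the test was redone on the 18-array fit with several effect sizes; small effects were recovered poorly there too. The labels do not say what the numbers stand for, so the numbers were not taken to pair the samples. Same-numbered arrays correlated over 0.1 for 4 of 6 numbers, and whether the samples were paired was not tested. Alternatives were renewed quantile normalization, median centring, averaging probe sets, other background and spread rules, rank correlation, other scores and leaving out each array.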

Additional observations from a re-analysis of the deposited data

Results flagged for a closer look

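Of 144 profiles over the 6 control arrays (named genes of high level or wide spread, isoform and pair genes, 25 gene lists and array summaries), 8 had an array that stood apart by more than Dixon's 95% critical share of the whole range. Chance alone gives about 1 in 20 such cases, so 8 of 144 is near that rate. Array 4 stood apart for COX1 (13.46 against 13.29 to 13.35 in the others), ND4L (13.18 against 13.03 to 13.08) and Fth1 (12.94 against 13.05 to 13.06). Array 3 stood apart for Col3a1 (10.73 against 10.55 to 10.58) and Cox6a1 (12.59 against 12.67 to 12.70). Array 5 stood apart for Tnnc2 (11.19 against 11.55 to 11.66) and Atp2a2 (11.59 against 11.68 to 11.72). In the list of growth factor and secreted genes, array 2 had a mean deviation of 0.037, against -0.018 to 0.0016.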

How the results depend on the processing

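No paired analysis was possible because the levels, spreads and pair correlations reported are within the control group alone, with no group contrast to block; the replicate number entered only the added fits by number. The count of genes above background stayed within 1.5 times its value under all 11 alternatives, from 9461 to 13026. The 18 genes spanning over 2-fold became 566 with no filter on dim genes, 8 with an SD over 0.4 in place of the span, and 5 without arrays 4 and 6, an alternative added after seeing the data; leaving out single arrays gave 10 to 18. The r of contractile and mitosis genes ranged from 0.19 to 0.72 when single arrays were left out, moving by more than 0.20, the SD of those 6 values, without arrays 3, 5 and 6, and stayed within that under the other 6 alternatives. The pair call fell from 1 to 0 with renewed quantile normalization, with averaged probe sets and with Spearman rho. It was also lost without each array in turn (0 to 0), but 5 arrays give an exact p of at least 0.00833. A single pair at that p cannot pass the adjustment, so these losses cannot decide whether the call rests on 1 array. The lowest adjusted exact p for Ckm and Casq1 was then 0.125, and their r lay between -0.92 and -0.99. Median centring kept this call. Genes differing by replicate number fell from 269 to 1 with the 12 other arrays alone and to between 4 and 225 when a number was left out. Of the 20 genes of largest spread, 12 to 20 stayed among the 20 under 9 alternatives, with 12 without array 2 and 12 without array 5. Of the 20 genes of highest level, 14 to 20 stayed under the same 9, with 14 when all probe sets were averaged.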

Other observations

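Of the probe sets without a single gene symbol, 6142 were above background in all 6 control arrays and were not described further.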
